A study of Mus musculus with 30 samples.

Results

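The genes described here are the replication-dependent histone genes, the clustered genes that supply most of the histone protein made while DNA is copied. They were taken as the rows of the deposited count table whose gene name begins with Hist1h, Hist2h, Hist3h or Hist4h and whose counts, summed over all 30 libraries, reached 10. Of 49315 genes in the table, 68 had such a name and 61 reached 10 counts. By protein, the 61 members were 6 H1, 17 H2A, 15 H2B, 10 H3 and 13 H4 genes. In GENCODE M21, 52 lie on chromosome 13, 5 on chromosome 3, 3 on chromosome 11 and 1 on chromosome 6, and 3 of the 61 (Hist1h2al, Hist1h2aj and Hist3h2bb-ps) are annotated as pseudogenes.

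RNA was sequenced in bulk from 4T1-tdTomato cells after growth in female BALB/c or NSG mice. The 4T1 line derives from a BALB/c mammary tumour, here marked with the fluorescent protein tdTomato, and NSG mice are immunodeficient, without T, B or NK cells. Each of 6 groups held 5 libraries. Tumours came from the mammary fat pad after implantation of 200000 cells (BALB/c days 21 and 22, NSG day 10), and the lung samples followed 500000 cells given by tail vein: DTC, a term that the labels do not expand, at day 7 in both strains, and macro-met at days 21 and 23 in BALB/c and days 19 and 20 in NSG mice. In all groups living CD45-negative, tdTomato-positive single cells were sorted and total RNA was extracted. Tumours and lung samples differ at once in organ, injection route and cell number. Tumours and DTC also differ in day within each strain, days 21 and 22 against 7 in BALB/c and day 10 against 7 in NSG mice. Tumours and macro-mets of the strains differ in day too, so effects of all these cannot be told apart. The labels do not say whether libraries came from separate animals, and p-values then measure only the spread between these libraries.

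Histone proteins package DNA into nucleosomes, which hold a core of H2A, H2B, H3 and H4, with H1 bound to the linker DNA between them. The replication-dependent genes are transcribed in S phase under the coactivator NPAT, and their messenger RNAs end in a conserved stem-loop in place of a poly(A) tail. SLBP binds the stem-loop and takes part in the processing, translation and decay of these messages. In human cells some genes of this class also give polyadenylated transcripts, which have been described in differentiated cells.

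The stem-loop is shown because it defines the class and bears on which transcripts a library can hold. A search of the annotated GENCODE M21 transcripts for the conserved 16 bases found it in 39 of the 61 members (4 H1, 9 H2A, 8 H2B, 8 H3 and 10 H4 genes), against 24 of 55382 other genes (0.0433%). Capitals mark the 6 paired bases on each side of the loop, in lower case, 5′ to 3′ as DNA of the sense strand.
Hist1h1c and 20 others of types H1, H2A, H2B and H3: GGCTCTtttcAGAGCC
Hist1h4d, Hist1h4h and 5 other H4 genes: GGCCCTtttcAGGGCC
Hist1h3c, Hist1h2bb and 4 others: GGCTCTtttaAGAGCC
Hist1h4i and Hist2h4: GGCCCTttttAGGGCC
The stems differ by type: the H4 genes carry a GGCCCT stem and the other types a GGCTCT stem. In 14 of the 39, annotated transcript continued past the stem-loop to a poly(A) signal (AATAAA or ATTAAA). The annotated transcript of Hist1h1c continued 840 bases past it, that of Hist1h4i 330 bases and that of Hist2h4 1257 bases, each with a signal. For Hist1h2bg 155 bases followed with no signal, and no stem-loop was found in the annotated transcripts of Hist1h2bc, Hist2h2be or Hist1h2al.

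The promoters of 4 members are shown because the results below turn on these genes and because Hist1h2ac and Hist1h2bg were high together in the same libraries. They come from RefSeq (GRCm38.p6), cover 250 bases before to 50 after the annotated start, and run 5′ to 3′ on the strand of the gene. Capitals mark matches on either strand to the TATA box letters TATAAA, the CCAAT box, the octamer ATTTGCAT and the H1 box AAACACA.
Hist1h1c (chr13:23738557-23738856, plus strand): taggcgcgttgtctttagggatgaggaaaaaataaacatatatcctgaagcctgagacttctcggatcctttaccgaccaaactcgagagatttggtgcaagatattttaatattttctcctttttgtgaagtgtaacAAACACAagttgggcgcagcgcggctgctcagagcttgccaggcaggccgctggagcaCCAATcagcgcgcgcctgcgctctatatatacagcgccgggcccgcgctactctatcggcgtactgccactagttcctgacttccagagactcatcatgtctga
Hist1h2bg (chr13:23571150-23571449, plus strand): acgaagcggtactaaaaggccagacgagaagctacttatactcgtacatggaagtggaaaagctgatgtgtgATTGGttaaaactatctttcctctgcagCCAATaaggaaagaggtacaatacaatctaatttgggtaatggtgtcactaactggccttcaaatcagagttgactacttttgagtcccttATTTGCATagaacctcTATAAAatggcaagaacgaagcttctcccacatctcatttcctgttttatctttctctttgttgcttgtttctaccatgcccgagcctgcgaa
Hist1h2ac (chr13:23683910-23684209, minus strand): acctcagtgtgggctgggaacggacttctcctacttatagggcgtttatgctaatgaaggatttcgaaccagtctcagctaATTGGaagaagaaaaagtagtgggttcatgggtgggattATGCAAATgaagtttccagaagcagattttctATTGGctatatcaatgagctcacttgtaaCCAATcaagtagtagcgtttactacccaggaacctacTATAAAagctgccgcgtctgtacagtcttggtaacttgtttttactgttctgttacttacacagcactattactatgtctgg
Hist1h4i (chr13:22041313-22041612, minus strand): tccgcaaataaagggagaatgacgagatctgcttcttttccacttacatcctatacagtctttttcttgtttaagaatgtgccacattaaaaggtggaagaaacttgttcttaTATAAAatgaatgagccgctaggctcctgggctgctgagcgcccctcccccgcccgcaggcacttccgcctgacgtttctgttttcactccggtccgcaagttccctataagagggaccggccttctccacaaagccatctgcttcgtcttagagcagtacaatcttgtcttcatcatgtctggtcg
Of the 51 members with a promoter in that table, 42 (82.4%) held CCAAT, against 37.4% of 32851 promoters. TATAAA was in 30 (58.8%), against 13.6%. The octamer was in 5 of 13 H2A and 3 of 12 H2B promoters, against 1.74% of all promoters, and the H1 box was in 5 of 6 H1 promoters, against 7.18%. CCAAT was in each of the H1, H2A, H2B and H3 promoters in the table but in 3 of 12 H4 promoters. None of the 4 motifs contains another, and a match is a description of sequence only. In all, 24 members stand as 12 head-to-head pairs of an H2A and an H2B gene with 173 to 302 bases between the starts, among them Hist1h2ac with Hist1h2bc (251 bases) and Hist1h2ae with Hist1h2bg (176 bases).

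The copies are alike in sequence, which limits how far reads can be assigned. In 24 members fewer than 50% of the 100-base windows of the annotated transcripts occur in no other annotated gene, and in 6 members all windows do (Hist1h1a, Hist1h1b, Hist1h1t, Hist1h4d, Hist2h2be and Hist2h4). The share of unique windows was 94.9% for Hist1h1c, 91.9% for Hist1h2ac, 84.9% for Hist1h4i, 74.6% for Hist1h2bc, 55.1% for Hist1h2bg, 10.5% for Hist1h2ah and 7.35% for Hist1h2ao. Of the 7 genes left out for low counts, 5 had no unique window and 0 counts: Hist2h2aa1, Hist2h2aa2, Hist2h2bb, Hist2h3b and Hist2h3c1. Their 0 counts cannot be read as absence of the transcript. The levels and ranks given below for H2A, H2B and H3 may miss transcripts of these copies. In addition, 18 members overlap a gene on the opposite strand, Hist1h2al and Hist1h2ao among them, and the strand setting of the counting is not given in the sources used here, so the values of such genes, and of members with few unique windows, are uncertain.

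Libraries held 29832098 to 65621525 counts and 17517 to 22187 detected genes. Of the 30 libraries, 4 stood apart in RNAs that carry no poly(A) tail. Rn7sk, the 7SK small nuclear RNA, was at 4897 CPM (counts scaled to library size, with TMM factors) in BALB/c tumour 4, against 201 to 280 CPM in the other BALB/c tumours. It was at 1089 and 1342 CPM in NSG tumours 2 and 3 and at 1756 CPM in NSG macro-met 3, against 57.8 to 137 CPM in the other libraries of these 2 NSG groups. The summed skeletal muscle markers (8 genes) were also high in these 4 libraries, at 832, 177, 228 and 334 CPM, against 18.7 to 64.9 CPM in the other 26 libraries. These 4 libraries also held the fewest detected genes, 17517, 18593, 19049 and 18297 in the same order, against 19563 to 22187 in the other 26. BALB/c macro-met 1 stood apart in the histone genes themselves: it held the highest value of 25 of the 61 members, with Rn7sk at 94.1 CPM. BALB/c DTC 1 and 2 held 3381 and 1445 CPM of 10 lung epithelium markers and 630 and 222.5 CPM of 13 leukocyte markers, against 69.1 to 194 and 18.6 to 68.9 CPM in the other BALB/c DTC libraries. Carcinoma markers (Epcam, Krt8, Krt18 and 4 others) summed to 4299 to 9341 CPM in every library.

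Hist1h1c, which encodes linker histone H1.2, was by far the most abundant member per length: it averaged 202.5 TPM (the length-scaled unit of the authors' table) over the 30 libraries. Within H1, Hist1h1d (H1.3) averaged 5.59 TPM and Hist1h1e (H1.4) 3.06 TPM. Among H2B genes, Hist1h2bc averaged 60.4, Hist1h2bg 24.8 and Hist1h2bf 7.11 TPM, and among H2A genes Hist1h2al averaged 21.1, Hist1h2ae 6.57 and Hist3h2a 5.19 TPM. The leading H4 gene, Hist1h4i, averaged 20.0 TPM, with Hist1h4d at 6.38 and Hist1h4h at 4.55 TPM. Among the leading genes of each type, that of H3 was lowest: Hist1h3c averaged 3.99 TPM, with Hist1h3i at 3.45 and Hist1h3d at 2.84 TPM. In counts, Hist1h1c held 67.2% of the 261229 counts of all members, and 50 of the 61 members averaged under 1 CPM. Of the 2 testis-specific genes in the table with any counts, Hist1h1t stayed at or below 0.0907 CPM in every library.

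Hist1h1c was at 151, 186, 128, 89.5 and 116 CPM in the 5 BALB/c tumours, 64.2, 82.8, 109.7, 94.2 and 156 in BALB/c DTC and 239.8, 364, 169.6, 136 and 107 in BALB/c macro-mets. In NSG mice it was at 96.6, 51.7, 82.01, 61.5 and 68.8 CPM in tumours, 97.8, 70.3, 77.01, 80.5 and 70.8 in DTC and 92.5, 84.7, 134, 117 and 109.7 in macro-mets. These are means of 134 ± 36.5, 101.5 ± 34.9 and 203 ± 102.5 CPM in BALB/c and 72.1 ± 17.6, 79.3 ± 11.2 and 107.5 ± 19.5 CPM in NSG mice (SD, n = 5 each). The highest libraries were BALB/c macro-mets 1 and 2, and the 3 NSG groups overlapped. Its share of all member CPM lay between 41.3% in BALB/c tumour 4 and 81.2% in BALB/c macro-met 2.

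The H3 and H4 genes varied among libraries in another way than Hist1h1c. The summed CPM of the 10 H3 genes was 3.19, 3.67, 3.08, 19.6 and 2.39 in BALB/c tumours, 2.98, 3.398, 3.78, 4.45 and 2.79 in BALB/c DTC and 21.4, 4.42, 1.33, 1.32 and 1.12 in BALB/c macro-mets. In NSG mice it was 3.07, 6.12, 10.3, 2.22 and 2.42 in tumours, 1.802, 1.98, 2.97, 2.65 and 2.24 in DTC and 1.73, 1.88, 6.88, 2.32 and 1.01 in macro-mets. BALB/c tumour 4 and BALB/c macro-met 1 were several times above the others of their groups, and NSG tumour 3 and NSG macro-met 3 were the highest of theirs. The 13 H4 genes summed to group medians of 11.1, 8.67 and 5.68 CPM from tumour to macro-met in BALB/c and 9.63, 6.46 and 4.26 CPM in NSG mice, with the highest values, 36.6 CPM in BALB/c tumour 4 and 56.1 CPM in BALB/c macro-met 1, in the same libraries. Summed H2A had medians of 12.9, 11.8 and 11.5 CPM in BALB/c and 7.28, 8.18 and 8.103 CPM in NSG mice, and summed H2B 28.5, 24.9 and 23.5 CPM in BALB/c and 26.8, 20.3 and 19.5 CPM in NSG mice. Summed H2A was lowest of its group in BALB/c tumour 4 (8.96 CPM) and NSG macro-met 3 (7.14 CPM), unlike H3, but highest in BALB/c macro-met 1 (46.6 CPM). The H1 genes other than Hist1h1c were highest of their groups in BALB/c tumour 4 (10.45 CPM) and BALB/c macro-met 1 (11.2 CPM). The same held in NSG tumour 3 (3.97 CPM) and NSG macro-met 3 (6.52 CPM). In bulk samples, fewer cells in S phase and less histone RNA per cell cannot be told apart.

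**Figure D1:**
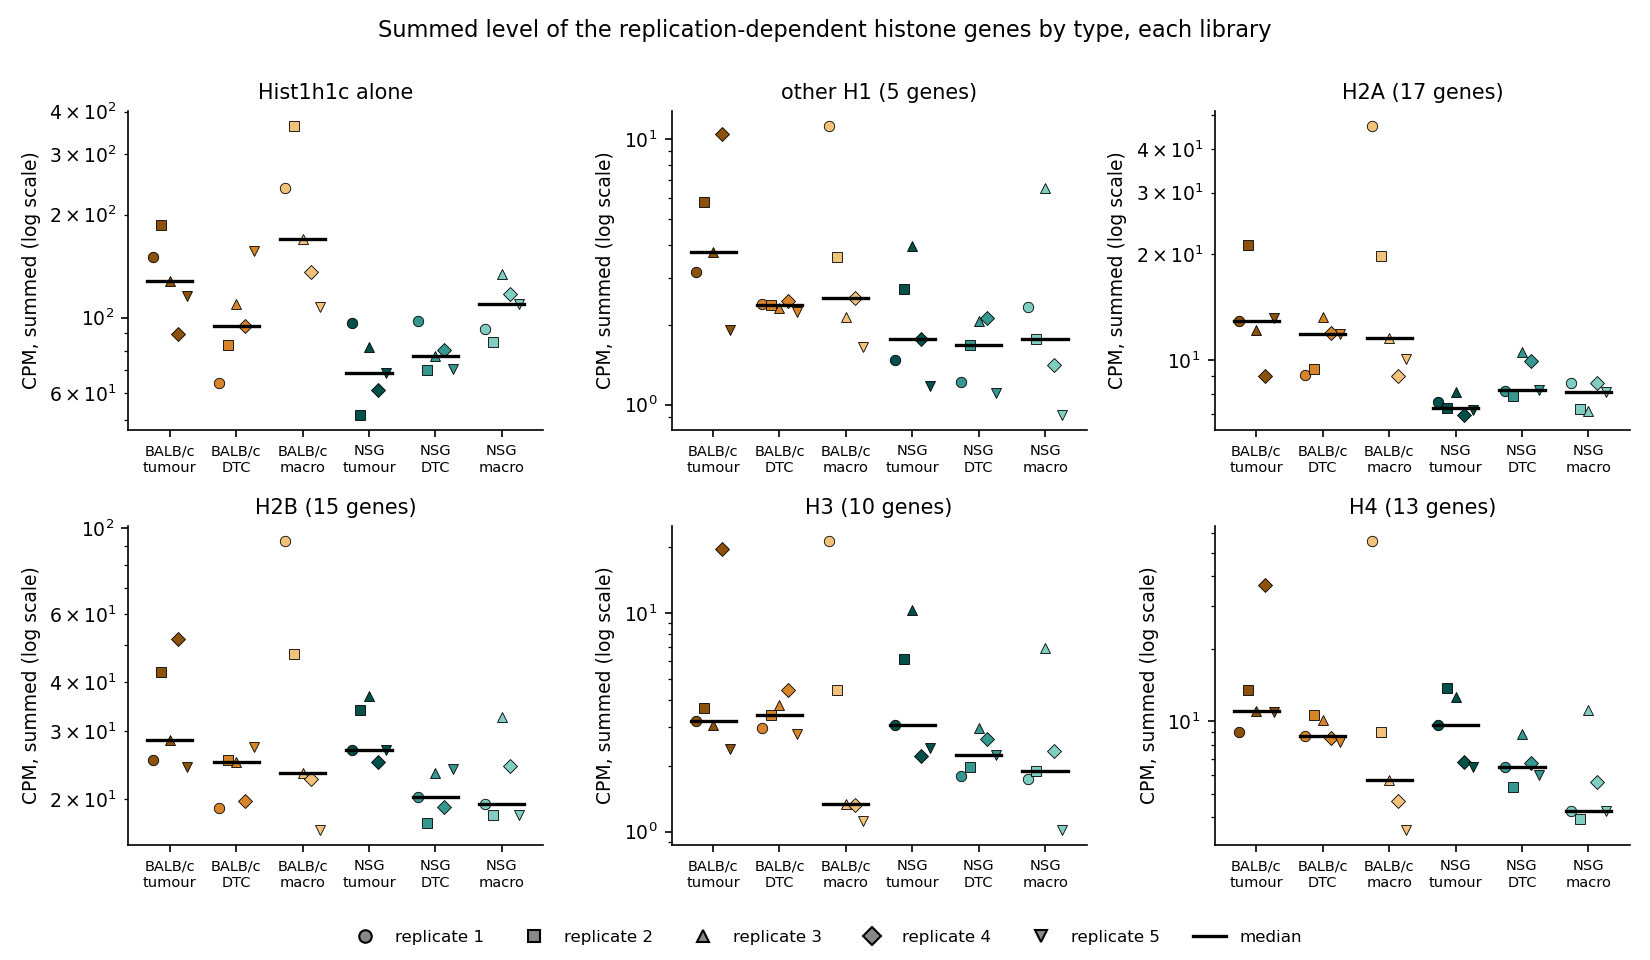
Summed CPM on a log axis for Hist1h1c alone, the other 5 H1 genes, and the H2A, H2B, H3 and H4 members, in each of the 30 libraries. Each point is 1 library, its shape gives the replicate number and the black line is the group's median. H3 and H4 stand high in BALB/c tumour 4 (19.6 and 36.6 CPM) and BALB/c macro-met 1 (21.4 and 56.1 CPM), while Hist1h1c is at 89.5 and 239.8 CPM in the same libraries.

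The 2 libraries differed in what else was high. BALB/c tumour 4 had 4897 CPM of Rn7sk, the highest value of 11 members and 16 members at 0 counts, among them Hist3h2a, an H2A gene that was at 4.69 to 7.27 CPM in the other BALB/c tumours. BALB/c macro-met 1 had 94.1 CPM of Rn7sk and 3 members at 0. Hist1h1c was lowest of its group in BALB/c tumour 4, at 89.5 CPM.

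**Figure D2:**
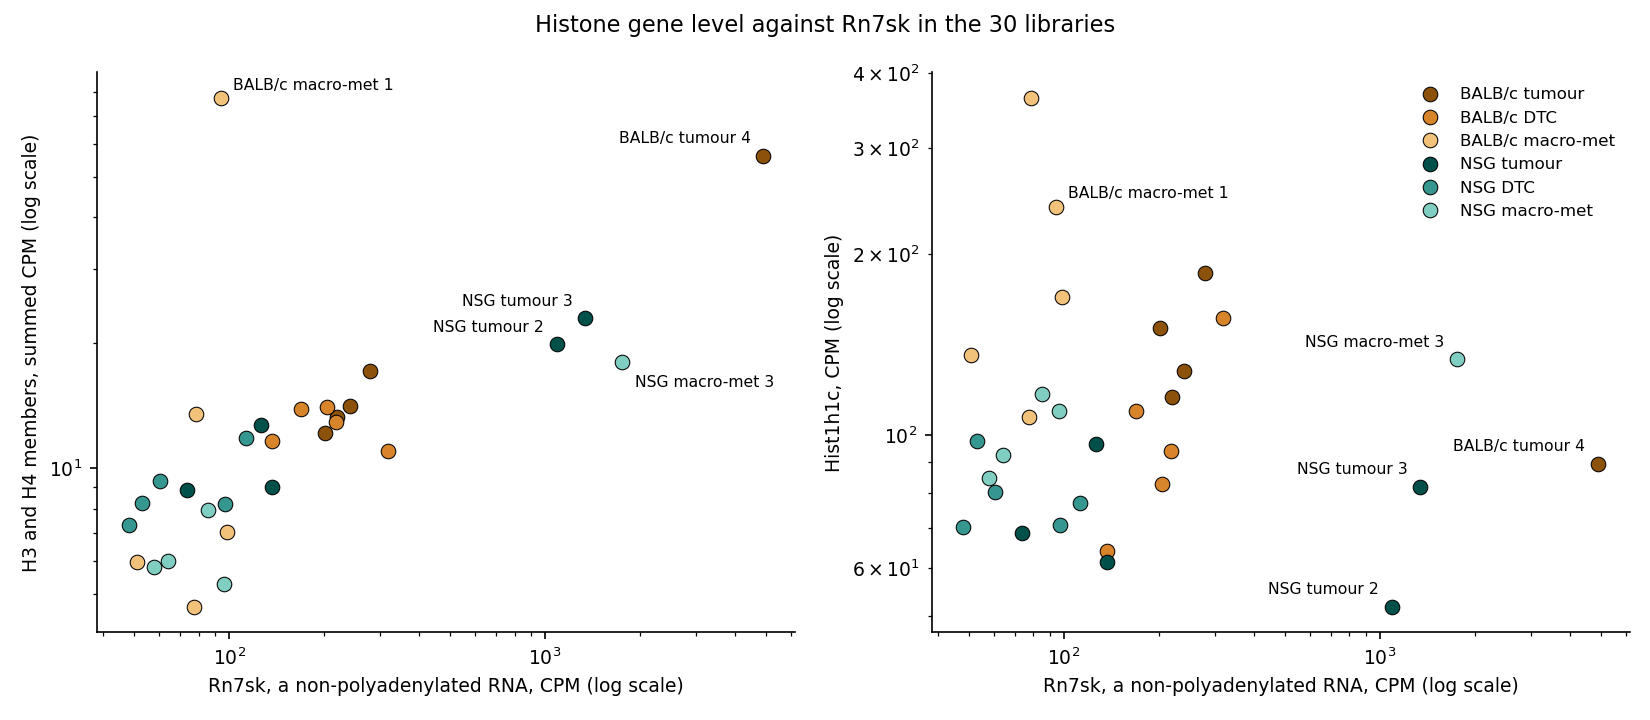
Rn7sk against the summed CPM of H3 and H4 genes (left) and against Hist1h1c (right), both axes in CPM on log scales, 1 point for each of 30 libraries. The 4 libraries with the highest Rn7sk (1089 to 4897 CPM) hold the highest H3 and H4 sums of the BALB/c tumour, NSG tumour and NSG macro-met groups, while Hist1h1c is lowest of its group in BALB/c tumour 4 and NSG tumour 2 and highest in NSG macro-met 3. BALB/c macro-met 1 holds the highest H3 and H4 with Rn7sk at 94.1 CPM.

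**Figure D3:**
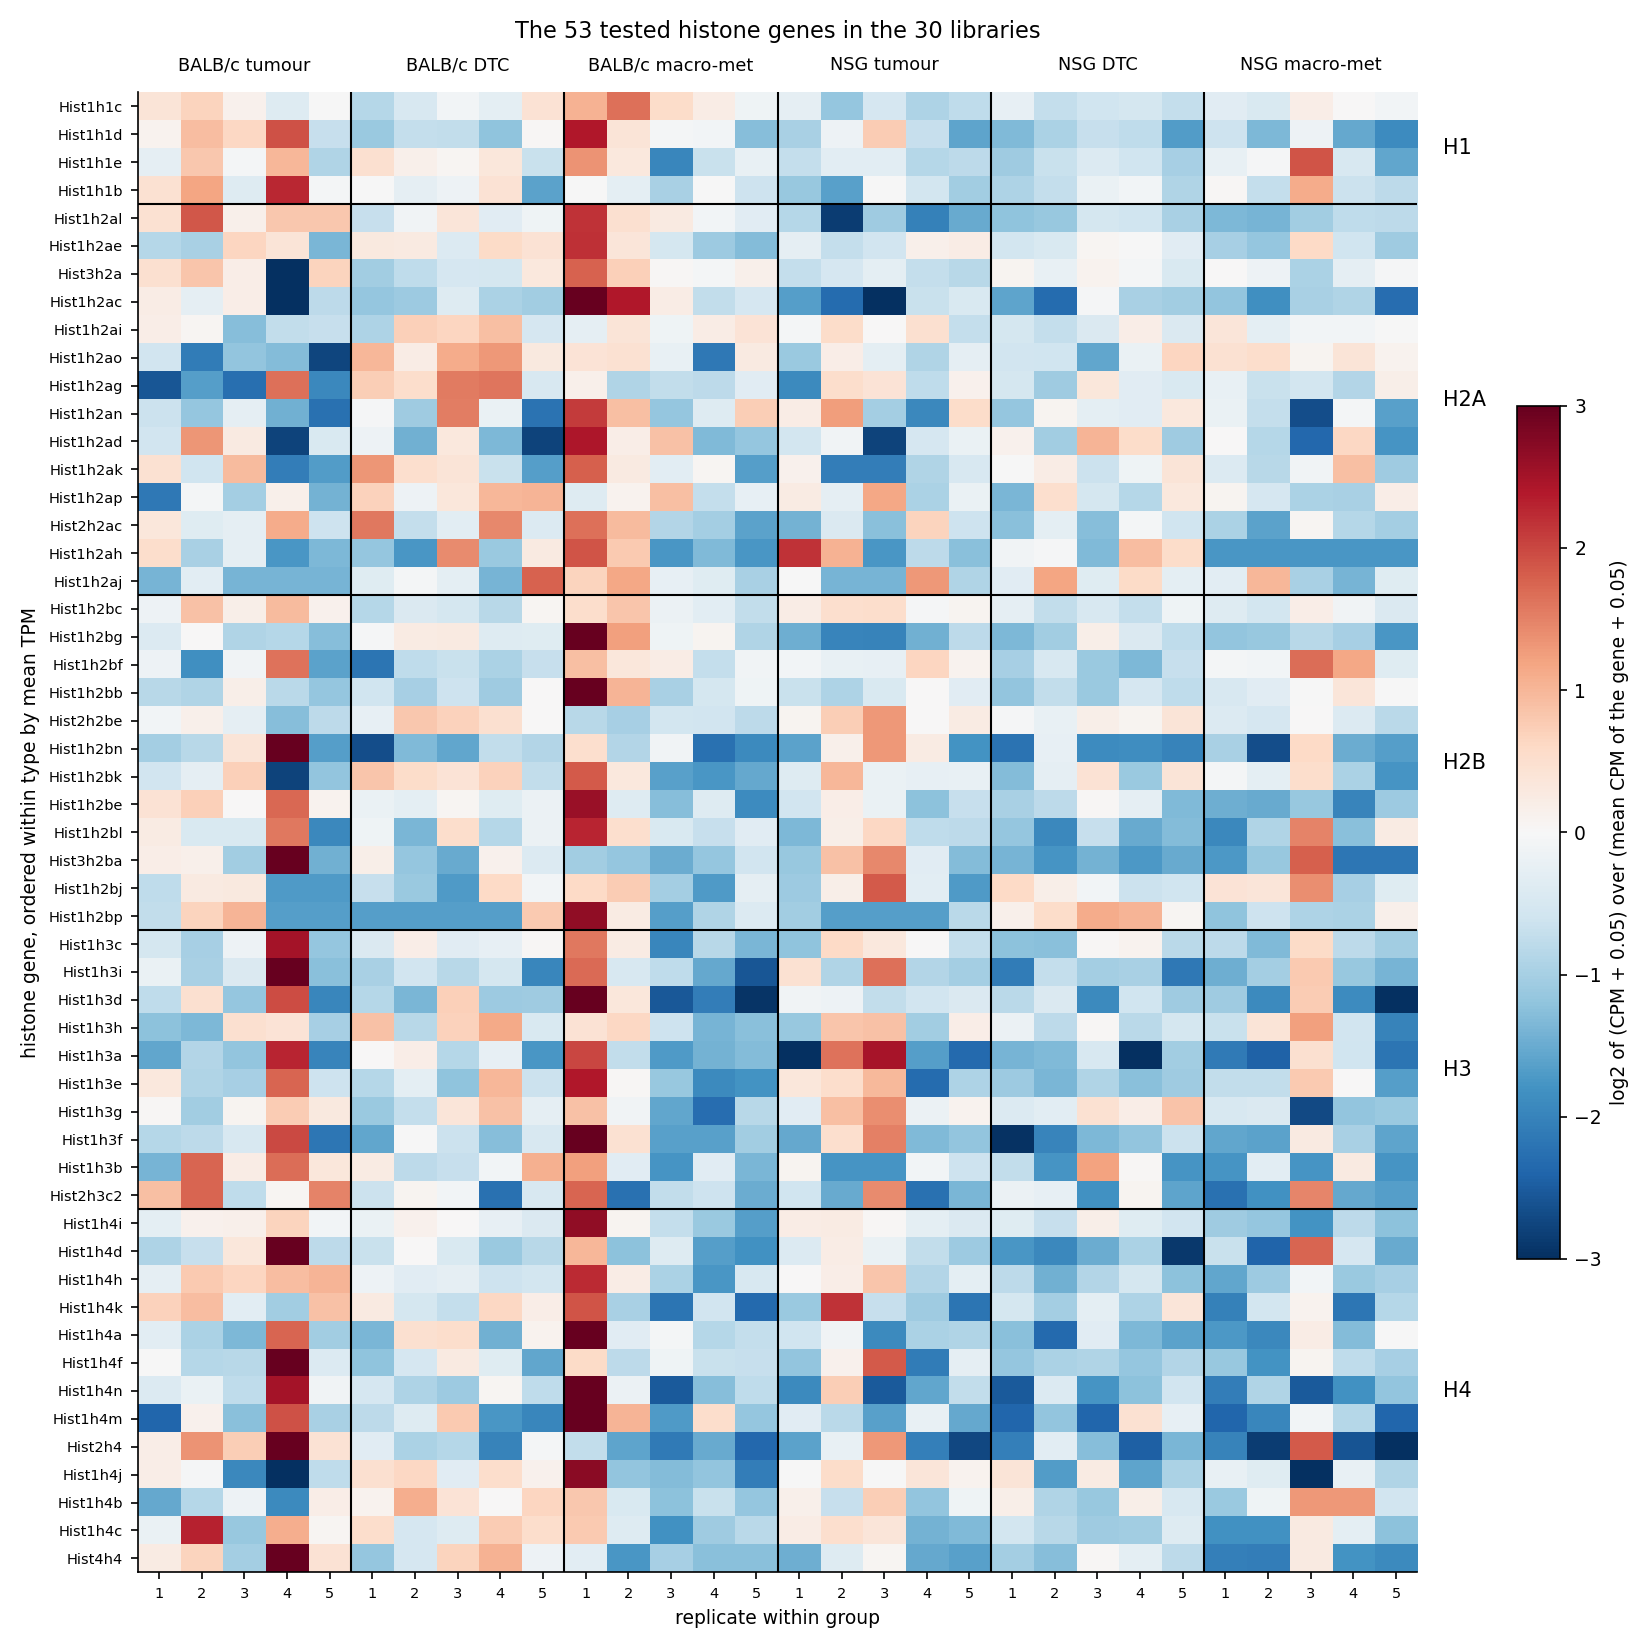
Level of the 53 members that passed the filter on low counts in each of 30 libraries, as log2 of CPM over the gene's mean CPM with 0.05 added to both, ordered by histone type. BALB/c macro-met 1 is the highest library for 25 members, BALB/c tumour 4 for 11, NSG tumour 3 for 5 and NSG macro-met 3 for 3 of those shown.

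Tests were run on all 17774 genes that passed the filter on low counts, which kept 53 of the 61 members (4 H1, 14 H2A, 12 H2B, 10 H3 and 13 H4). A gene was called at an edgeR quasi-likelihood Benjamini-Hochberg adjusted p under 0.05, and changes are log2 fold changes ± SE with 5 libraries a group. All members called are named, and those outside the naming rule (Hist1h1b, Hist1h2ah, Hist1h2ao, Hist1h2bb, Hist1h2bn, Hist2h4 and Hist3h2ba) were chosen after their values were seen. Comparisons that share a group share its libraries. No H3 gene was called by edgeR in any of the 11 comparisons, with 5 of 110 tests at an unadjusted p under 0.05. DESeq2 called 2 of these 110 (Hist1h3g in NSG macro-met against tumour and Hist1h3i in BALB/c DTC against tumour) and voom 2 (Hist1h3g in NSG macro-met against DTC and against tumour).

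In BALB/c mice, DTC held less Hist1h2bc, an H2B gene, than tumours and more Hist1h2ao, an H2A gene of low level. Hist1h2bc was at 9.102, 12.2, 11.3, 9.21 and 17.02 CPM in DTC, against 14.7, 30.5, 18.5, 31.9 and 18.04 CPM in tumours. The groups overlapped at 1 DTC library, DTC 5. Its fitted change was -0.95 ± 0.25, adjusted p = 0.00288, and the call was kept without each library in turn but lost with GC and length offsets (-0.68 with an adjusted p of 0.062) and with a lung marker covariate (-0.46 with an adjusted p of 0.4). Hist1h2ao was at 0.841, 0.475, 0.916, 1.06 and 0.498 CPM in DTC, against 0.254, 0.0543, 0.149, 0.131 and 0.0166 CPM in tumours. Every DTC library was above every tumour, and its change of 2.62 ± 0.63, adjusted p = 0.00137 was kept under each alternative run, although 7.35% of its windows are unique. Hist2h2be, an H2B gene whose human orthologue gives polyadenylated transcripts, was at 2.24, 4.77, 4.38, 3.76 and 2.699 CPM in DTC, against 2.53, 2.98, 2.21, 1.07 and 1.53 CPM in tumours. The DTC values reached higher, but the groups overlapped.

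In all, 7 of 53 members (13.2%) were called in BALB/c DTC against tumours, 2 higher and 5 lower, beside 41.4% of all genes tested (20.4% higher and 21% lower). Hist2h2be rose (0.79 ± 0.29, adjusted p = 0.0273) and lost its call without BALB/c tumours 4 or 5 or BALB/c DTC 2, 3 or 4 (adjusted p 0.0584 to 0.0989). Hist1h2al, an H2A pseudogene, was at 1.81, 2.72, 3.81, 2.31 and 2.699 CPM in DTC, against 4.04, 10.8, 3.28, 5.18 and 5.203 CPM in tumours, with overlap at DTC 3. It fell (-1.10 ± 0.40, adjusted p = 0.0292) and lost its call without BALB/c tumour 2 or BALB/c DTC 1 or 4 (adjusted p 0.0542 to 0.154). Hist1h1d, a linker histone gene, was at 0.688, 0.924, 0.916, 0.6401 and 1.58 CPM in DTC, against 1.68, 3.003, 2.42, 6.01 and 0.948 CPM in tumours, of which tumour 4 was highest and tumour 5 lay within the DTC range. It fell (-1.56 ± 0.56, adjusted p = 0.0272) and lost its call without BALB/c tumour 4 or BALB/c DTC 1 or 4 (adjusted p 0.054 to 0.117). Hist2h4, an H4 gene, was at 0.637, 0.3997, 0.429, 0.167 and 0.791 CPM in DTC, against 0.942, 2.17, 1.403, 7.08 and 1.13 CPM in tumours, without overlap. It fell (-2.38 ± 0.94, adjusted p = 0.0423) and lost its call without BALB/c tumours 2 or 4 or BALB/c DTC 1, 2, 3 or 4 (adjusted p 0.0531 to 0.182), with a log2 fold change of -1.56 without tumour 4. Hist1h2bn, an H2B gene, was at 0 to 0.139 CPM in DTC and highest, at 3.67 CPM, in tumour 4. It fell (-3.40 ± 1.19, adjusted p = 0.0219) and lost its call without BALB/c tumour 4 (log2 fold change -0.98, adjusted p = 0.497). Medians by type were -0.85 for H1, 0.70 for H2A, -0.80 for H2B, -0.92 for H3 and -0.92 for H4. Of 14 H2A genes tested, 10 were above 0. The median over the 53 members was -0.65, beside -0.09 over all genes, and -0.00 without BALB/c tumour 4. It turned to 0.46 with the lung marker covariate, 0.28 with the covariate for RNA without a poly(A) tail and 0.06 without the 4 libraries highest in that RNA. The count was 11 without BALB/c tumour 3. Lung epithelium and leukocyte markers, each summed, were high in BALB/c DTC 1 and 2. Of 11 leukocyte markers tested, 1 was called higher in BALB/c DTC than in tumours, with a list median of -0.49. With a lung marker covariate 3 members were called. That covariate, the mean log2 CPM of lung epithelium and endothelial markers, was 0.172 to 0.640 in BALB/c tumours and 2.03 to 6.17 in BALB/c DTC. It was 0.692 to 2.15 in BALB/c macro-mets. Because it hardly overlaps or does not overlap between these stages, fits with it cannot separate lung markers from stage.

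In NSG mice, 1 of 53 members was called between DTC and tumours, beside 25.5% of all genes (16% higher and 9.55% lower). Hist1h2bc was at 13.6, 9.75, 11.7, 9.98 and 14.9 CPM in NSG DTC, against 19.1, 23.2, 23.6, 16.1 and 17.5 CPM in NSG tumours. Every DTC library was below every tumour. The change of -0.73 ± 0.25, adjusted p = 0.0292 was lost without NSG tumours 2 or 3 or NSG DTC 2, 3 or 4 (adjusted p 0.0502 to 0.063). Medians by type were -0.01 for H1, 0.04 for H2A, -0.49 for H2B, -0.62 for H3 and -0.76 for H4. The member median was -0.48, beside 0.06 over all genes, with 39 of 53 below 0. It was -0.08 without the 4 libraries highest in RNA without a poly(A) tail, of which NSG tumours 2 and 3 are part, and 0.02 with a covariate for that RNA. The count of calls was 0 without NSG tumour 2 or 3 or NSG DTC 2, 3 or 4, and 3 without NSG tumour 5.

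BALB/c macro-mets held more Hist1h1c and less Hist2h2be than BALB/c DTC. The linker gene Hist1h1c was at 107 to 364 CPM in the macro-mets, against 64.2 to 156 CPM in DTC, with overlap. It rose (1.00 ± 0.26, adjusted p = 0.00396) and was called without each library in turn, but with a lung marker covariate the change was 0.42 with an adjusted p of 0.355. Hist2h2be was at 1.497, 1.32, 1.81, 1.79 and 1.54 CPM in macro-mets, below every one of the 5 DTC libraries named above. Its change of -1.16 ± 0.29, adjusted p = 0.00249 was kept under each alternative run. These 2 genes, both with polyadenylated transcripts in their human orthologues, moved in opposite directions.

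In all, 6 of 53 members (11.3%) were called between BALB/c macro-mets and DTC, 5 higher and 1 lower, beside 30.8% of all genes (16.6% higher and 14.2% lower). Each of the other 4 rises lost its call without BALB/c macro-met 1. Hist1h2bg, an H2B gene, was at 42.1, 10.3, 3.99, 4.597 and 2.29 CPM in macro-mets, against 4.28, 5.15, 5.24, 3.31 and 3.403 CPM in DTC. Macro-met 1 was far above the rest, macro-met 2 was next, and the other 3 overlapped DTC or lay below it. Hist1h2bg rose (1.57 ± 0.50, adjusted p = 0.0173) and lost its call without BALB/c macro-met 1 (log2 fold change 0.32, adjusted p = 0.561). Hist1h2bb, another H2B gene, was at 8.29, 2.08, 0.484, 0.666 and 0.899 CPM in macro-mets, against 0.637, 0.475, 0.6298, 0.445 and 0.997 CPM in DTC. Only macro-mets 1 and 2 lay above the DTC range. Hist1h2bb rose (1.96 ± 0.54, adjusted p = 0.0058) and lost its call without BALB/c macro-met 1 (log2 fold change 0.70, adjusted p = 0.25). Hist1h2ac, an H2A gene, was at 6.84, 3.84, 0.816, 0.393 and 0.475 CPM in macro-mets, against 0.2804, 0.2998, 0.515, 0.334 and 0.309 CPM in DTC. Macro-mets 1 and 2 held high values and macro-mets 4 and 5 lay within the DTC range. Hist1h2ac rose (2.83 ± 0.78, adjusted p = 0.00586) and lost its call without BALB/c macro-met 1 (log2 fold change 1.99, adjusted p = 0.0524). Hist1h1d, at 8.37, 2.06, 1.48, 1.47 and 0.611 CPM in macro-mets, rose (1.55 ± 0.56, adjusted p = 0.0351) and lost its call without BALB/c DTC 1, 2, 3 or 4 or BALB/c macro-met 1 (adjusted p 0.0626 to 0.455). The member median was 0.51, beside -0.04 over all genes, and turned to -0.56 without BALB/c macro-met 1, when 2 members were called.

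**Figure D4:**
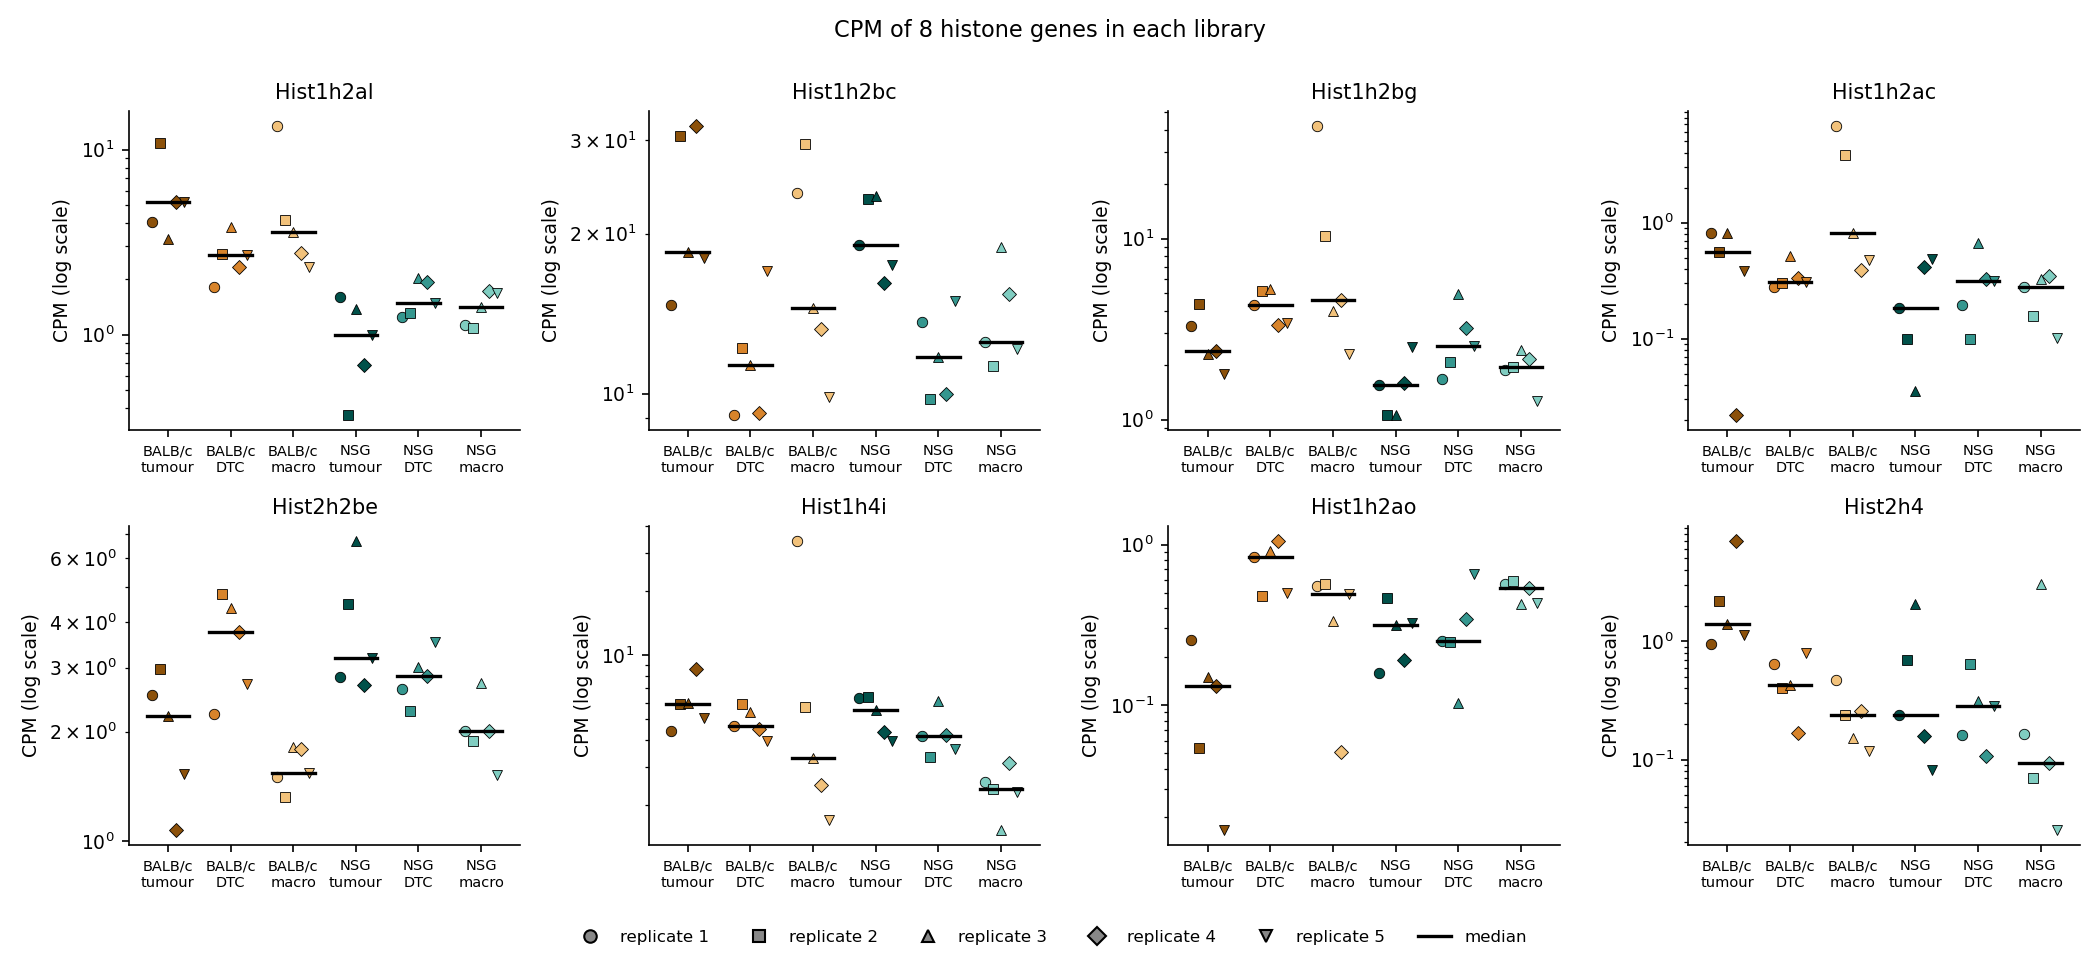
CPM on a log axis of 8 members in each of the 30 libraries, in the order tumour, DTC and macro-met for BALB/c and then NSG. Each point is 1 library and the line is the median. Hist2h2be lies lower in all 5 BALB/c macro-mets (1.32 to 1.81 CPM) than in all 5 BALB/c DTC libraries (2.24 to 4.77 CPM), and Hist1h2bg and Hist1h4i reach 42.1 and 34.3 CPM in BALB/c macro-met 1 alone.

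In NSG mice, 2 of 53 members were called between macro-mets and DTC, 1 in each direction, beside 43.7% of all genes (21.3% higher and 22.4% lower). Hist1h2bf, an H2B gene, was at 1.16, 1.15, 3.98, 2.79 and 0.937 CPM in NSG macro-mets, against 0.589, 0.858, 0.535, 0.451 and 0.738 CPM in NSG DTC. The groups did not overlap. Hist1h2bf rose (1.66 ± 0.53, adjusted p = 0.0117) and lost its call without NSG macro-met 3 (log2 fold change 1.22, adjusted p = 0.0678). Hist1h2ah, an H2A gene, had 0 counts in all 5 NSG macro-mets, against 0.107, 0.116, 0.0173, 0.2703 and 0.199 CPM in NSG DTC. Pooled over the group it was at least 11.1-fold lower, with 3 counts over the group taken as the limit of a count of 0 (adjusted p = 0.0136). The call was lost on log2(TPM + 1) (adjusted p = 0.0648). The group of NSG DTC held 36 counts in all, and 10.5% of the windows of Hist1h2ah are unique. Medians by type were 0.51 for H1, -0.21 for H2A, 0.40 for H2B, 0.40 for H3 and 0.05 for H4. The member median was 0.05, beside 0.02 over all genes, and turned to -0.35 without NSG macro-met 3. Without NSG macro-met 5 the count was 5.

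Between macro-mets and tumours of BALB/c mice, 8 of 53 members (15.1%) were called, 4 higher and 4 lower, beside 37.8% of all genes (19.6% higher and 18.2% lower). Hist2h4 was at 0.473, 0.2401, 0.151, 0.256 and 0.119 CPM in macro-mets, below every tumour. Its change of -3.34 ± 0.98, adjusted p = 0.0083 was called without each library in turn (-2.51 with an adjusted p of 0.0416 without tumour 4), but not with a covariate for RNA without a poly(A) tail (-0.95 with an adjusted p of 0.226). Hist4h4, also an H4 gene, was at 0.177, 0.0343, 0.0907, 0.0684 and 0.0678 CPM in macro-mets, against 0.284, 0.398, 0.0896, 2.45 and 0.333 CPM in tumours, of which tumour 4 stood far above the rest. It fell (-2.99 ± 0.89, adjusted p = 0.00882) and lost its call without BALB/c tumour 4 (log2 fold change -1.66, adjusted p = 0.121). Hist3h2ba, an H2B gene, fell (-2.87 ± 1.12, adjusted p = 0.0422) and lost its call without BALB/c tumour 4 or BALB/c macro-mets 1, 2, 3, 4 or 5 (adjusted p 0.0543 to 0.458). Hist1h1b, the H1.5 gene, fell (-1.46 ± 0.55, adjusted p = 0.036) and lost its call without BALB/c tumours 2 or 4 or BALB/c macro-mets 2, 3 or 5 (adjusted p 0.0614 to 0.215). Of the rises, Hist1h2bg (2.16 ± 0.51, adjusted p = 0.00149) lost its call without BALB/c macro-met 1 (log2 fold change 0.89, adjusted p = 0.0588), and Hist1h2bb (1.99 ± 0.54, adjusted p = 0.00439) lost it without BALB/c macro-met 1 (log2 fold change 0.71, adjusted p = 0.214). Hist1h2ac (2.26 ± 0.75, adjusted p = 0.0187) lost its call without BALB/c macro-mets 1 or 2 (adjusted p 0.0522 to 0.156), and Hist1h2ao (1.70 ± 0.62, adjusted p = 0.0301) lost it without BALB/c tumours 2 or 5 or BALB/c macro-mets 1, 2 or 5 (adjusted p 0.0626 to 0.0768). Medians by type were -0.07 for H1, 0.86 for H2A, 0.36 for H2B, -0.38 for H3 and -0.12 for H4. The member median was 0.24, beside -0.03 over all genes, and turned to -0.69 without BALB/c macro-met 1. Without BALB/c macro-met 2 the count was 4.

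In NSG mice, 2 of 53 members were called between macro-mets and tumours, both lower, beside 30.5% of all genes (16.9% higher and 13.6% lower). Hist2h2be was at 2.01, 1.88, 2.72, 2.01 and 1.52 CPM in NSG macro-mets, against 2.83, 4.49, 6.71, 2.69 and 3.19 CPM in NSG tumours. Only macro-met 3, at 2.72 CPM, lay above the lowest tumour. The change of -0.97 ± 0.29, adjusted p = 0.0103 was lost without NSG tumour 3 (log2 fold change -0.73, adjusted p = 0.0543). Hist1h2ah was at least 13.8-fold lower in NSG macro-mets, with 0 counts there, than in NSG tumours (adjusted p = 0.0118), which held 0.708, 0.299, 0, 0.04798 and 0.0204 CPM, tumour 3 being at 0 counts too. Of 40 counts in NSG tumours, 27 were in tumour 1, without which the bound was 5.33-fold. The call was lost with voom, on log2(TPM + 1) and log2(TPM + 0.1) and with the lung marker covariate (adjusted p 0.0506 to 0.167). Medians by type were 0.72 for H1, -0.16 for H2A, -0.19 for H2B, -0.48 for H3 and -0.95 for H4. The member median was -0.41, beside 0.02 over all genes. The count was 1 without NSG tumour 3 and 4 without NSG macro-met 3.

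The host strain was compared at each stage. In tumours, the pseudogene Hist1h2al and the linker gene Hist1h1c were higher in BALB/c than in NSG mice. Hist1h2al was at 4.04, 10.8, 3.28, 5.18 and 5.203 CPM in BALB/c tumours, against 1.601, 0.366, 1.37, 0.688 and 0.997 CPM in NSG tumours. Every BALB/c tumour was above every NSG tumour, and the difference of 2.499 ± 0.42, adjusted p = 5.34e-05 was kept under each alternative run. Hist1h1c was at 89.5 to 186 CPM in BALB/c tumours, against 51.7 to 96.6 CPM in NSG tumours. BALB/c tumour 4 alone fell within the NSG range, and the difference was 0.89 ± 0.26, adjusted p = 0.0126, a call lost with GC and length offsets without the 5 libraries that stand apart (0.79 with an adjusted p of 0.056). In all, 5 of 53 members (9.43%) were called, 4 higher and 1 lower in BALB/c tumours, beside 23.6% of all genes (11% higher and 12.6% lower). Hist2h2be was lower in BALB/c tumours (-0.95 ± 0.29, adjusted p = 0.0154) and lost its call without NSG tumour 3 (log2 fold change -0.67, adjusted p = 0.0892). Hist1h1b was higher (1.95 ± 0.56, adjusted p = 0.0113) and lost its call without BALB/c tumour 4 (log2 fold change 1.33, adjusted p = 0.0669). Hist4h4 was higher (2.66 ± 0.88, adjusted p = 0.0262) and lost its call without BALB/c tumour 4 or NSG tumours 1, 4 or 5 (adjusted p 0.0637 to 0.258). Medians by type were 1.04 for H1, -0.13 for H2A, 0.41 for H2B, 0.53 for H3 and 1.05 for H4. The member median was 0.80, beside 0.08 over all genes. It turned to -0.18 without BALB/c tumour 4 and -0.14 with the covariate for RNA without a poly(A) tail.

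In DTC, taken at day 7 in both strains, no member was called by edgeR between BALB/c and NSG mice, beside 38.8% of all genes (17.1% higher and 21.7% lower), with 1 member at an unadjusted p under 0.05. That member, Hist1h2ao, had a difference of 1.25 ± 0.60, adjusted p = 0.0989, and DESeq2 called it. Voom called 2 members, Hist1h2ao and the H2B gene Hist1h2bp, the second named after its values were seen. The fitted difference was above 0 in 45 of 53 members, with a median of 0.51, beside -0.01 over all genes. These 2 groups also differed in the rank correlation of gene level, centred on its mean, with GC content. It was -0.0947 to 0.442 in BALB/c DTC and -0.594 to -0.311 in NSG DTC. The cause of the shift of the members was not tested. Hist1h1c was at 64.2 to 156 CPM in BALB/c DTC and 70.3 to 97.8 CPM in NSG DTC, and Hist1h2bc at 9.10 to 17.0 CPM in BALB/c DTC and 9.75 to 14.9 CPM in NSG DTC. The strains overlapped in both genes. Without BALB/c DTC 5 or NSG DTC 5, 1 member was called.

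In macro-mets, 5 of 53 members (9.43%) were higher in BALB/c than in NSG mice, in a comparison in which 2.64% of all genes were called (1.88% higher and 0.76% lower). Hist1h2bg was at 42.1, 10.3, 3.99, 4.597 and 2.29 CPM in BALB/c macro-mets, against 1.88, 1.95, 2.43, 2.17 and 1.27 CPM in NSG macro-mets. The lowest BALB/c library, macro-met 5, lay within the NSG range. The difference of 2.70 ± 0.52, adjusted p = 0.00216 was called without each library in turn (1.46 with an adjusted p of 0.023 without BALB/c macro-met 1) but not by voom (1.89 with an adjusted p of 0.0803). Hist1h2ac was at 0.393 to 6.84 CPM in BALB/c macro-mets, against 0.277, 0.157, 0.326, 0.345 and 0.101 CPM in NSG macro-mets, without overlap. Hist1h2ac was higher (3.35 ± 0.80, adjusted p = 0.0134) and lost its call without BALB/c macro-met 1 (log2 fold change 2.52, adjusted p = 0.0966). Hist1h2al was at 13.5, 4.15, 3.57, 2.75 and 2.32 CPM in BALB/c macro-mets, against 1.12, 1.08, 1.402, 1.73 and 1.67 CPM in NSG macro-mets, also without overlap. Hist1h2al was higher (1.91 ± 0.41, adjusted p = 0.00597) and lost its call without BALB/c macro-met 1 (log2 fold change 1.21, adjusted p = 0.0698).

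The other 2 members called between macro-mets were Hist1h4i, the leading H4 gene, and Hist1h2be, an H2B gene. Hist1h4i was at 34.3, 5.69, 3.296, 2.48 and 1.696 CPM in BALB/c macro-mets, against 2.56, 2.37, 1.52, 3.14 and 2.28 CPM in NSG macro-mets. BALB/c macro-met 1 was far above the rest, and macro-mets 4 and 5 lay within the NSG range. Hist1h2be was at 10.99, 1.34, 0.696, 1.35 and 0.441 CPM in BALB/c macro-mets, against 0.608, 0.593, 0.782, 0.408 and 0.8103 CPM in NSG macro-mets, with macro-met 1 again far above the rest. The differences were 2.00 ± 0.51, adjusted p = 0.0236 for Hist1h4i and 2.20 ± 0.58, adjusted p = 0.0302 for Hist1h2be. Hist1h4i lost its call without BALB/c macro-met 1 or NSG macro-mets 2, 3 or 5 (adjusted p 0.0534 to 0.424), with a log2 fold change of 0.50 without BALB/c macro-met 1. Hist1h2be lost its call without BALB/c macro-met 1 or NSG macro-mets 1, 2, 3, 4 or 5 (adjusted p 0.051 to 0.539), with 0.60 without that library. Without BALB/c macro-met 1 the count of members called fell to 1, and the member median was -0.01, against 0.84 with it and -0.01 over all genes. The count was 3 without NSG macro-met 2, 3 or 5.

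Whether a change between stages differed by strain was tested as an interaction, the change in BALB/c minus the change in NSG mice. Between DTC and tumours, 3 of 53 members were called, beside 33.4% of all genes (15% higher and 18.4% lower). The change of Hist2h2be was higher in BALB/c mice (1.27 ± 0.40, adjusted p = 0.0147), as was that of Hist1h2ao (2.49 ± 0.86, adjusted p = 0.0243), and that of Hist1h2al was lower (-1.76 ± 0.57, adjusted p = 0.0175). Hist2h2be lost this call without NSG tumour 3 (log2 fold change 0.99, adjusted p = 0.0522) and Hist1h2al without BALB/c tumour 2 (log2 fold change -1.39, adjusted p = 0.0584), and Hist1h2ao lost it without the 5 libraries that stand apart (2.29 with an adjusted p of 0.0511). Without BALB/c tumour 4 the count was 6. Between macro-mets and DTC, 3 of 53 were called, beside 28.1% of all genes (16.6% higher and 11.6% lower). The change was higher in BALB/c mice for Hist1h2bg (2.14 ± 0.71, adjusted p = 0.0228) and Hist1h2ac (3.24 ± 1.07, adjusted p = 0.0233). Hist1h2bg lost its call without NSG DTC 3 or BALB/c macro-met 1 (adjusted p 0.0564 to 0.194) and Hist1h2ac without NSG DTC 3 or BALB/c macro-met 1 (adjusted p 0.0634 to 0.0956). The third, Hist1h2ah (adjusted p = 0.038), rests on the group at 0 counts and lost its call in 10 of the fits that leave out 1 library, without BALB/c DTC 1 or 4 or NSG DTC 4 or BALB/c macro-mets 1 or 2 or NSG macro-mets 1, 2, 3, 4 or 5 (adjusted p 0.0501 to 0.0933). The count was 0 without BALB/c macro-met 1, 1 without NSG DTC 3, and 5 without BALB/c macro-met 3 or 5.

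The genes that make and handle histone messages were set beside the members from lists of the pathway. In BALB/c DTC against tumours, 29 of 30 genes of S-phase DNA synthesis rose, with a list median of 1.51, beside -0.09 over all genes. Over the members the median was -0.65 (-0.00 without BALB/c tumour 4). It was 0.70 over the H2A members and -0.92 to -0.80 over the other types. Beside each list count in this comparison stand 20.4% of all genes called higher and 21% called lower. Pcna, the sliding clamp of DNA polymerases, was at 451, 478, 499.7, 453 and 433 CPM in BALB/c DTC, against 186, 151, 196, 287 and 196 CPM in BALB/c tumours. Every DTC library was above every tumour, and Pcna rose (1.19 ± 0.12, adjusted p = 6.31e-09). Mcm10 and Cdc45, both needed to start DNA replication, rose by 2.41 and 2.15 on the log2 scale. Slbp, the stem-loop binding protein, was at 108, 113, 102, 104 and 114 CPM in BALB/c DTC, against 71.8, 51.3, 54.6, 71.1 and 55.9 CPM in tumours, and rose (0.83 ± 0.11, adjusted p = 7.27e-07). Npat, the coactivator of these genes, was at 12.8, 5.596, 8.07, 7.96 and 2.01 CPM in BALB/c DTC, against 12.98, 12.4, 13.5, 15.8 and 14.9 CPM in tumours, and fell (-0.94 ± 0.28, adjusted p = 0.00814), a call lost when the fit held only the compared groups (adjusted p = 0.0705) and with GC and length offsets without the 5 libraries that stand apart (adjusted p = 0.121). Of 19 chaperone and chromatin assembly genes 12 rose and 2 fell, with Asf1b, a chaperone of H3 and H4, at 2.33 and Chaf1b, a subunit of CAF-1, at 1.26. Of 11 replacement histone genes tested (histone genes outside the clusters, such as those of H2A.Z and H3.3), 4 rose, among them H2afx (1.74) and the centromeric Cenpa (1.10). Of 27 transcription, 3′ processing and decay genes 10 rose and 5 fell, and of 18 genes of G2 and mitosis 14 rose. Of the 10 tested members whose human orthologues give polyadenylated transcripts, Hist2h2be rose and Hist1h2bc fell.

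In NSG DTC against tumours, 18 of 30 S-phase genes rose, with a median of 0.43, beside -0.48 over the members and 0.06 over all genes. Beside each list count in this comparison stand 16% of all genes called higher and 9.55% called lower. With GC and length offsets and without the 5 libraries that stand apart, 1 of the 30 was called higher. Pcna (0.14 ± 0.12, adjusted p = 0.414) and Slbp (0.13 ± 0.11, adjusted p = 0.423) did not pass. Npat was at 21.5, 24.01, 32.2, 29.5 and 23.96 CPM in NSG DTC, against 8.27, 5.58, 7.19, 6.27 and 5.41 CPM in NSG tumours, and rose (2.00 ± 0.29, adjusted p = 9.07e-06). Casp8ap2, a nuclear partner of NPAT in histone locus bodies, rose (3.66 ± 0.49, adjusted p = 4.32e-06). The strains moved in opposite directions for Npat, with an interaction of -2.94 ± 0.40, adjusted p = 3.31e-06. Libraries also differed by group in the rank correlation of gene level, centred on its mean, with GC content. It was -0.594 to -0.311 in NSG DTC and -0.0947 to 0.442 in BALB/c DTC. Npat was highest of its group in NSG DTC 3, at -0.594, and lowest of its group in BALB/c DTC 5, at 0.442. Fits with GC and length offsets were among the alternatives run. Beyond these, the part of GC content in the changes of single genes such as Npat and Casp8ap2 was not tested. Of 19 chaperone genes 8 rose and 0 fell, among them Atrx (3.22), which takes part in depositing H3.3, but with GC and length offsets and without the 5 libraries 1 rose and 6 fell. Of 27 processing genes 9 rose and 2 fell, against 3 and 10 under that setting, so the balance of both lists turned with it. Of 18 G2 and mitosis genes 10 rose, against 5 under that setting, and of 11 replacement genes 2 fell, against 0 on log2(TPM + 1).

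Between macro-mets and DTC, 22 of 30 S-phase genes fell in BALB/c mice, beside 14.2% of all genes (median -0.60, beside 0.51 over the members). Over the members it was -0.56 without BALB/c macro-met 1 and -0.65 without the 5 libraries. In NSG mice 12 S-phase genes fell and 2 rose (median -0.28, beside 0.05 over the members, or -0.35 without NSG macro-met 3). There 22.4% of all genes were called lower and 21.3% higher. Slbp fell in both (-0.51 ± 0.11, adjusted p = 0.000632 in BALB/c and -0.63 ± 0.11, adjusted p = 2.27e-05 in NSG mice), but in NSG mice its change was 0.043 with GC and length offsets. Npat fell in NSG mice (-3.14 ± 0.30, adjusted p = 2.19e-09) and did not pass in BALB/c mice (-0.59 ± 0.28, adjusted p = 0.111), except without BALB/c DTC 5. Between macro-mets and tumours, 29 of 30 S-phase genes rose in BALB/c mice, beside 19.6% of all genes (median 0.90, beside 0.24, or -0.69 without BALB/c macro-met 1). In NSG mice 5 rose and 1 fell (median 0.18, beside -0.41), against 1 and 0 without the 4 libraries highest in RNA without a poly(A) tail. There 16.9% of all genes were called higher and 13.6% lower, so the share of S-phase genes that rose was near that of all genes. In BALB/c against NSG tumours 27 of 30 were lower, beside 12.6% of all genes (median -0.99, beside 0.80 over the members). Over the members it was -0.18 without BALB/c tumour 4 and -0.14 with the covariate for RNA without a poly(A) tail. Log2 differences were -0.93 for Pcna and -0.75 for Slbp, and Npat was higher (1.09 ± 0.28, adjusted p = 0.00479). In DTC 9 were higher and 3 lower in BALB/c mice, beside 17.1% and 21.7% of all genes (median 0.18, beside 0.51). But on log2(TPM + 1) 3 were higher and 8 lower, and with GC and length offsets without the 5 libraries 14 were higher and 0 lower. In macro-mets none was called by edgeR, DESeq2 or voom (median -0.14, beside 0.84, or -0.01 without BALB/c macro-met 1). There edgeR called 2.64% of all genes. The difference between the lists was not tested.

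**Figure D5:**
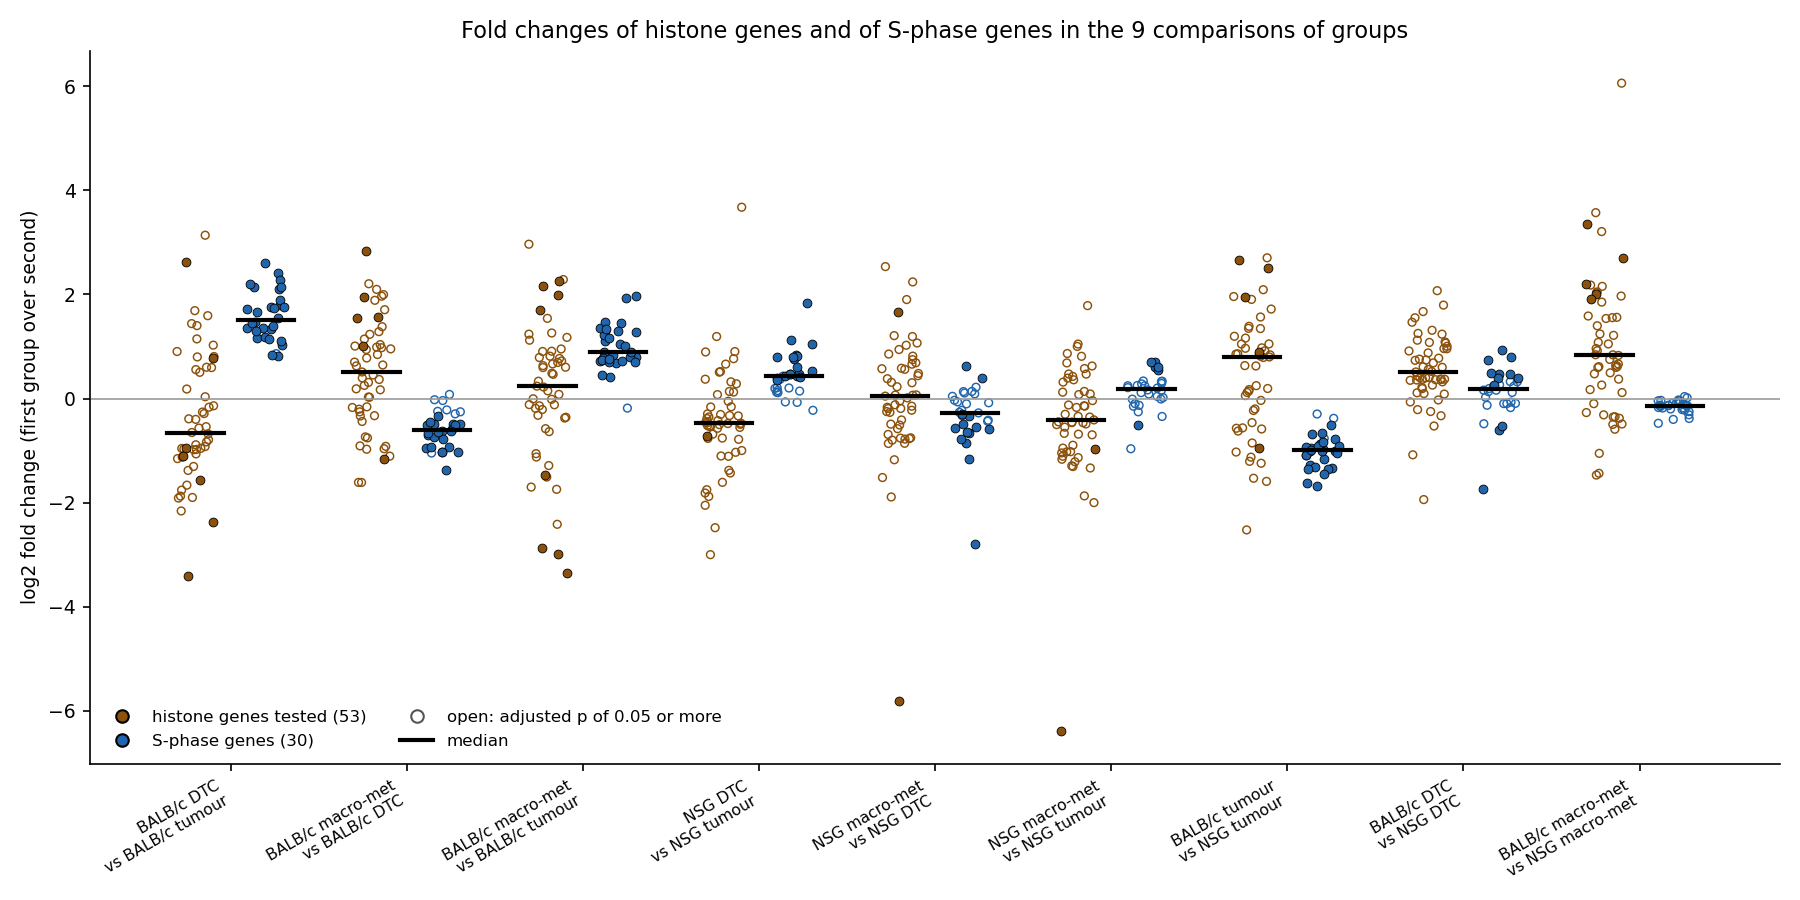
Log2 fold changes of the 53 tested histone genes (brown) and of 30 S-phase genes (blue) in the 9 comparisons between groups. Each point is 1 gene, filled where the adjusted p is under 0.05, and the bar is the median. In BALB/c DTC against tumours the medians are -0.65 for the histone genes and 1.51 for the S-phase genes, and in BALB/c against NSG tumours 0.80 and -0.99. Without BALB/c tumour 4 the histone medians are -0.00 and -0.18. Over the H2A genes alone, with all libraries, the medians are 0.70 and -0.13.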

How the data were processed

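The deposited table holds raw read counts per gene and a matching TPM table for 30 bulk RNA-seq libraries in 6 groups of 5. Reads were trimmed with Trimmomatic 0.36 and aligned with STAR 2.5.2b to GRCm38 (mm10), per the submitters' processing notes. TPM values were made and deposited by the authors, with gene lengths that are not stated. The counting tool, its strand setting, the annotation and the library selection (poly(A) or ribosomal depletion) are not given in the sources used here. The last bears on transcripts without a poly(A) tail.

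The members and gene lists were chosen with earlier results of these data known. Counts were fitted in R 4.3.3 with edgeR 4.0.16 (filterByExpr by group, TMM, robust quasi-likelihood fit, all 30 libraries, 24 residual degrees of freedom), with Benjamini-Hochberg adjustment over 17774 genes, which held 99.97% of counts. Libraries held 29832098 to 65621525 counts, and no pair had identical counts. SE is the size of the log2 fold change over the square root of F. CPM uses TMM-scaled library sizes. The fit was tested on simulated data. Alternatives used DESeq2 1.42.0, limma 3.58.1 (voom, and log2 TPM with pseudocounts of 1 and 0.1), other scaling, filters, offsets and covariates, and each library left out in turn. Named members are the 3 with the highest mean TPM of each type and, per comparison, up to 3 called rises and falls with a mean CPM of 1 or more. Positions, stem-loops and sequence uniqueness come from GENCODE M21, in which 49056 of 49315 gene identifiers were found, and promoters from RefSeq, GRCm38.p6. The limit set for a count of 0 covers counting error only.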

Additional observations from a re-analysis of the deposited data

Results flagged for a closer look

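In 12 of 60 sets of 5 libraries, 1 library stood far from the other 4, by its gap to the nearest divided by the range of the group. Chance does so in about 1 in 20 separate sets if values are normally distributed, which was not tested for these CPM. These sets are not separate, since the type sums hold the single genes and all share the same libraries, so the 2 shares cannot be compared. BALB/c macro-met 1 was the highest library in 5 of them: 46.6 CPM for summed H2A, 21.4 CPM for H3, 56.1 CPM for H4, 13.5 CPM for Hist1h2al and 34.3 CPM for Hist1h4i. BALB/c tumour 4 was the highest for summed H3 (19.6 CPM), H4 (36.6 CPM) and Hist1h3c (4.39 CPM), and BALB/c tumour 2 for Hist1h2al (10.8 CPM). NSG macro-met 3 was the highest for summed H3 (6.88 CPM), H4 (11.2 CPM) and Hist1h3c (1.12 CPM).

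The change between stages differed between BALB/c and NSG mice, by the interaction test, in 5 members with counts in every group compared, beside 33.4% (DTC and tumours) and 28.1% (macro-mets and DTC) of all genes called. Between DTC and tumours the differences were 1.27 for Hist2h2be, 2.49 for Hist1h2ao and -1.76 for Hist1h2al. Between macro-mets and DTC they were 2.14 for Hist1h2bg and 3.24 for Hist1h2ac. These are log2 values. All but Hist1h2ao lost the call when 1 library was left out: Hist2h2be without NSG tumour 3 (log2 fold change 0.99, adjusted p = 0.0522), Hist1h2al without BALB/c tumour 2 (log2 fold change -1.39, adjusted p = 0.0584), and Hist1h2bg and Hist1h2ac without NSG DTC 3 or BALB/c macro-met 1 (adjusted p 0.0564 to 0.194). Hist1h2ao lost it without the 5 libraries that stand apart, without and with GC and length offsets (adjusted p 0.0511 and 0.0763).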

How the results depend on the processing

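The number of members called in each comparison was recounted under 13 other settings and with each library left out. Leaving out 1 library gave 5 to 11 members for BALB/c DTC against tumour, 0 to 3 for NSG DTC against tumour, 2 to 9 for BALB/c and 2 to 5 for NSG macro-met against DTC, 4 to 9 for BALB/c and 1 to 4 for NSG macro-met against tumour, 4 to 6 between tumours, 0 to 1 between DTC, 1 to 7 between macro-mets, and 2 to 6 and 0 to 5 for the interactions of DTC with tumour and of macro-met with DTC. DESeq2 gave 12 for BALB/c and 3 for NSG DTC against tumour, 4 for NSG macro-met against tumour, 1 between DTC and 8 between macro-mets. GC and length offsets gave 11 for BALB/c and 2 for NSG DTC against tumour, 4 for NSG macro-met against tumour, 4 against DTC, and 1 between DTC. With these offsets and without the 5 libraries that stand apart, 5 were called between DTC, 3 between macro-mets, 2 for NSG DTC against tumour, 5 for NSG macro-met against DTC and 1 for the macro-met interaction. On log2(TPM + 0.1), 2 were called between macro-mets, 4 for NSG macro-met against tumour, 5 for the DTC interaction and 0 for the macro-met interaction, and on log2(TPM + 1) 1 between DTC and 3 between macro-mets. The lung marker covariate gave 3 for BALB/c DTC against tumour, 2 between DTC, 1 for BALB/c macro-met against DTC and 0 for the macro-met interaction, and the covariate for RNA without a poly(A) tail 5 for the DTC interaction. A fit of only the groups compared gave 5 between DTC, 3 between macro-mets, 3 between tumours, 3 for BALB/c and 4 for NSG macro-met against tumour and 4 for NSG DTC against tumour. With voom, 2 were called between DTC, 2 for BALB/c macro-met against DTC, 4 for BALB/c macro-met against tumour, 1 between macro-mets, 2 for NSG DTC against tumour and 6 for the DTC interaction. Without the 5 libraries, 6 were called between DTC, 2 between macro-mets, 10 between tumours and 7 for NSG macro-met against DTC. Without the 4 libraries highest in RNA without a poly(A) tail, these were 3 between DTC, 12 for BALB/c and 5 for NSG macro-met against DTC and 5 for the DTC interaction. These last 3 settings, the ones that leave out 4 or 5 libraries, were chosen after seeing the data. The causes were not tested.

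Among the values named here, directions turned as follows; turned medians over the members are given with each comparison. The change of Hist1h4i in BALB/c macro-met against tumour was -0.72 without the 5 libraries, -0.71 with offsets as well and -0.88 without BALB/c macro-met 1 (-0.88 to 0.92 with any 1 library left out). With the offsets, and with the offsets without the 5 libraries, Pcna was 0.21 and 0.30 and Slbp 0.043 and 0.17 in NSG macro-met against DTC, Slbp was 0.59 and 0.69 in BALB/c against NSG DTC, and its interaction between macro-met and DTC was -0.60 and -0.85. Slbp in NSG DTC against tumour was -0.44 with the offsets without the 5 libraries. No paired analysis was possible because the labels give no pairing of libraries between groups. Members under 1 CPM rest on few counts, and their changes are the least precise.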
